A study of Mus musculus with 8 samples.

Results

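Polyamine synthesis and breakdown were followed through 10 genes, Odc1, Aoc1, Sat1, Amd1, Srm, Sms, Smox, Paox, Azin1 and Arg2, taken by gene symbol from a table of 54251 mouse genes. All 10 were present, each as 1 protein-coding row, and all 10 were among the 15607 genes tested, which averaged 0.5 FPKM or more across the 8 libraries; FPKM is a count of fragments scaled by gene length and library size. Expression was measured by RNA-seq of polyadenylated RNA from kidneys of adult male C57BL/6 mice. The 4 groups were KO_IR (kidney-specific G9a knockout with renal ischemia reperfusion), WT_IR (wild type with the same injury), KO (the knockout without it) and WT (wild type without it). Injury was made by clamping the left renal pedicle for 45 min, and tissue was taken on day 3. Each group had 2 libraries, and every library pooled kidney RNA of 3 mice. The labels and design text state neither how the kidney-specific deletion was driven, nor in which cells, nor whether the KO and WT kidneys came from operated mice. All p-values describe the spread between pools of mice.

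The polyamines putrescine, spermidine and spermine are small positively charged molecules that bind nucleic acids and are needed for growth and for the hypusine modification of the translation factor eIF5A. Arginase makes ornithine, ornithine decarboxylase (Odc1) turns it into putrescine, and spermidine synthase (Srm) and spermine synthase (Sms) add aminopropyl groups that the S-adenosylmethionine decarboxylase Amd1 provides. Breakdown runs back through acetylation by Sat1 and oxidation by Paox, through direct oxidation of spermine by Smox, and through oxidation of putrescine and histamine by the secreted diamine oxidase Aoc1. In the male mouse kidney Odc1 is a classic androgen-induced gene of the proximal tubule.

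Sequence upstream of the start site is shown for Odc1, Sms, Smox and Aoc1, 4 of the genes that passed the tests below, with both windows that RefSeq gives for Aoc1 and the first of the pair for Sms. Each window holds the 250 bases before a RefSeq start (GRCm38.p6), 5′ to 3′ on the gene's strand; RefSeq starts can differ from the gene starts of the deposited table. Capitals mark matches, read on either strand, to the E-box CACGTG, the AP-1 motif TGACTCA, the GC box GGGCGG or the TATA motif TATAAA. These motifs were chosen after the sequences had been seen, and a match is a description of letters; no match overlaps another in the windows shown.
Odc1, chr12:17544623-17544872, plus strand: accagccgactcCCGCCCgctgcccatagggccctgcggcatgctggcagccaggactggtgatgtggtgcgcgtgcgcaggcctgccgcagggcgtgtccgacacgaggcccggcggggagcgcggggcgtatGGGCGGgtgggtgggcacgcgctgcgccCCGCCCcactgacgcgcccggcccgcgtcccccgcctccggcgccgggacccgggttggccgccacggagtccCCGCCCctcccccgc
Sms, first start, chrX:157492288-157492537, minus strand: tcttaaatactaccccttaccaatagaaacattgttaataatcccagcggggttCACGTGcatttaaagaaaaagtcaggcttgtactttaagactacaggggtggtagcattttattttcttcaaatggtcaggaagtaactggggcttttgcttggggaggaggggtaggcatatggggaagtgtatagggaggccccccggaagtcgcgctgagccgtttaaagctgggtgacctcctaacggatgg
Smox, chr2:131491612-131491861, plus strand: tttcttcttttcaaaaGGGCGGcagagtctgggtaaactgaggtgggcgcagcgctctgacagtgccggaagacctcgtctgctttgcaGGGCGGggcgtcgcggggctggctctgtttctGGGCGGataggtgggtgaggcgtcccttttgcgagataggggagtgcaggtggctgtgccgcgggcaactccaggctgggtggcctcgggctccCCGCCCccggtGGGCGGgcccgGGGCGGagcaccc
Aoc1, first start, chr6:48895005-48895254, plus strand: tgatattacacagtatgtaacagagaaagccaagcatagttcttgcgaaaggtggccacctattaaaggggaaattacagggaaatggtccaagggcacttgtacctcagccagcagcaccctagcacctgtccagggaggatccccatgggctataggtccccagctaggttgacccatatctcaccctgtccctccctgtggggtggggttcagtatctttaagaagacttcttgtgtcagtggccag
Aoc1, second start, chr6:48904736-48904985, plus strand: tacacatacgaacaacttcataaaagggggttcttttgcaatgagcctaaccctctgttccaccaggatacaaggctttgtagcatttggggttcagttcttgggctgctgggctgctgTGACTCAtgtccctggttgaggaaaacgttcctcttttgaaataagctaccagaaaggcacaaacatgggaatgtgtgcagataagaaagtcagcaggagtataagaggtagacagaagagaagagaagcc
The Odc1 window has a G and C content of 80%, higher than or equal to 98.9% of all RefSeq windows, and holds 4 GC boxes. The Smox window (68%) holds 6 GC boxes. The first Sms window (47.2%) holds 1 E-box at -196 to -191, counted from the start. The second Sms window, not printed, has a G and C content of 75.2%, higher than or equal to 96.4% of all windows, and holds 4 GC boxes, some of them overlapping, and no E-box. The first Aoc1 window (51.2%) holds none of the 4 motifs, and the second (45.6%) holds 1 AP-1 motif at -131 to -125. Among 32851 windows of this length, 32.7% held a GC box, 12.4% a TATA motif, 6.02% an E-box and 4.46% an AP-1 motif, without correction for base content. RefSeq windows were at hand for 7 of the 10 genes.

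The libraries held 14965670 to 17596690 fragments assigned to genes, and the replicates of a group correlated at 0.982 to 0.985 across genes. G9a is encoded by Ehmt2, which had 27.4 and 26.3 FPKM in KO_IR, 34.5 and 35.8 FPKM in WT_IR, 28.1 and 26.4 FPKM in KO and 33.4 and 30.3 FPKM in WT. The knockout libraries were lower without overlap, although whole-gene FPKM also counts exons outside a deletion and cells that kept the gene. The KO 2 library stood apart from KO 1 in markers of tubular injury, with 7.50 FPKM of Havcr1 against 0.593 FPKM, so differences of the 10 genes from KO are also given without it. Slc34a1, a phosphate transporter that marks the proximal tubule of the kidney, stood at 1335 and 1358 FPKM in KO and 1396 and 1095 FPKM in WT. The deposited scaling raised the denominator of the WT_IR libraries to 1.18 and 1.19 times their fragment total, against 0.921 to 1.03 times in the others. Rescaling each library to the same sum (TPM) moves the median gene by 0.49 (log2) in WT_IR minus WT and by -0.35 in KO_IR minus WT_IR. Changes are given below on the deposited scale, as differences of log2(FPKM + 1). The added 1 shrinks the differences of low genes, so ratios of mean FPKM can be larger.

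In WT_IR kidneys 5 of the 10 genes passed the test against WT (limma, Benjamini-Hochberg adjusted p under 0.05), beside 42.3% of all genes tested. Aoc1, Smox and Arg2 rose, and Odc1 and Sms fell, while the synthesis enzymes Amd1 and Srm and the oxidase Paox did not pass. By TPM 7 were higher and 2 lower, beside 7486 higher and 1554 lower of the 15607 genes tested. In KO_IR kidneys none of the 10 passed against KO, beside 1.03% of all genes tested. Between the injured groups, KO_IR minus WT_IR, 6 of the 10 passed, beside 30% of all genes tested. The median of the 10 was 0.14 (log2) in WT_IR minus WT and -0.08 in KO_IR minus WT_IR, beside -0.02 and -0.01 over all genes tested, since members moved both ways. It was 0.07 in KO_IR minus KO and 0.06 in KO minus WT, beside -0.02 and -0.00 over all genes tested.

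**Figure D1:**
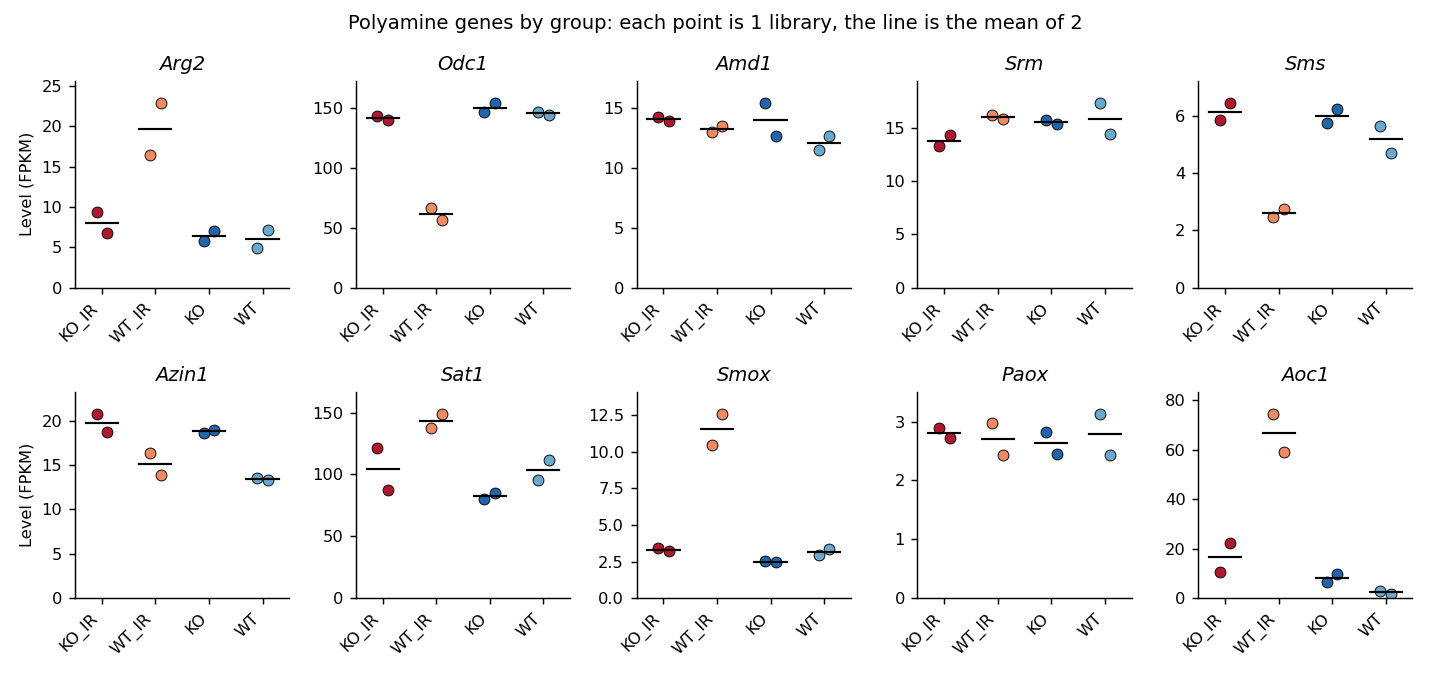
FPKM of the 10 genes in each of the 8 libraries (points) with the mean of 2 libraries (line), in the groups KO_IR, WT_IR, KO and WT; every y axis starts at 0. In Odc1, Sms, Smox, Aoc1, Arg2 and Sat1 the WT_IR libraries lie apart from the other 6, while Amd1, Srm and Paox keep similar levels in all groups.

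Odc1 (ENSMUSG00000011179, chr12:17544794-17551505, GRCm38, plus strand), the enzyme that makes putrescine, had 143.1 and 139.4 FPKM in KO_IR, 66.4 and 56.4 FPKM in WT_IR, 146.3 and 153.7 FPKM in KO and 146.7 and 143.6 FPKM in WT. The 2 WT_IR libraries were the low ones, and the other 6 libraries lay between 139.4 and 153.7 FPKM. It fell by 1.23 ± 0.099 on the log2 scale in WT_IR against WT (limma adjusted p = 0.000152) to 0.423 times the WT mean. Its difference in KO_IR against KO was -0.09 ± 0.099 (95% interval -0.32 to 0.15, limma adjusted p = 0.787). Among all genes of the table Odc1 ranked 599 and 736 by FPKM in WT_IR, against 352 and 373 in WT, and 293 to 342 in the knockout groups. On the TPM scale its fall in WT_IR was -0.73 (limma adjusted p = 0.000888).

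Arg2 (ENSMUSG00000021125, chr12:79130777-79156301, plus strand), the mitochondrial arginase that supplies ornithine, had 9.34 and 6.78 FPKM in KO_IR, 16.4 and 22.9 FPKM in WT_IR, 5.71 and 7.03 FPKM in KO and 4.93 and 7.16 FPKM in WT. The WT_IR libraries were the high ones, and KO_IR overlapped both KO and WT. Arg2 rose by 1.55 ± 0.23 (log2) in WT_IR against WT (limma adjusted p = 0.0016). In KO_IR against KO the difference was 0.29 ± 0.23 (limma adjusted p = 0.676). Of its 1428 exon bases 285 overlap Vti1b on the other strand, and the counting is not stated to use strand. Vti1b had 47.5 and 44.3 FPKM in KO_IR, 42.8 and 42.0 FPKM in WT_IR, 42.8 and 48.9 FPKM in KO and 54.2 and 47.8 FPKM in WT, so it was lowest in WT_IR, where Arg2 was high. The other arginase, Arg1, had at most 0.609 FPKM in any library and was not tested.

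Azin1 (ENSMUSG00000037458, chr15:38487427-38519266, minus strand), the antizyme inhibitor that shields ornithine decarboxylase from antizyme, had 20.8 and 18.8 FPKM in KO_IR, 16.3 and 13.9 FPKM in WT_IR, 18.7 and 18.9 FPKM in KO and 13.5 and 13.3 FPKM in WT. Both knockout groups were above both wild-type groups in every library. In KO against WT the difference was 0.46 ± 0.097 (log2), which missed the threshold (limma adjusted p = 0.151). Among injured kidneys Azin1 was higher in KO_IR than in WT_IR, by 0.37 ± 0.097 (limma adjusted p = 0.0282), and the difference was 0.03 (limma adjusted p = 0.837) on the TPM scale. That call was also lost with only the groups compared (adjusted p = 0.0793) and without KO_IR 1 (0.133), WT_IR 2 (0.148), KO 1 (0.0501) or KO 2 (just above 0.05), in limma each time. Its difference in WT_IR against WT was 0.16 ± 0.097 (limma adjusted p = 0.232), and on the TPM scale it passed as higher, by 0.67 (limma adjusted p = 0.00126). Of its 6256 exon bases 358 overlap a gene annotated on the other strand.

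The enzymes that build spermidine and spermine did not move as one. Amd1 (ENSMUSG00000075232, chr10:40287458-40302186, minus strand) had 14.3 and 14.0 FPKM in KO_IR, 13.0 and 13.5 FPKM in WT_IR, 15.4 and 12.7 FPKM in KO and 11.5 and 12.6 FPKM in WT. Srm (ENSMUSG00000006442, chr4:148591503-148594993, plus strand) had 13.3 and 14.4 FPKM in KO_IR, 16.2 and 15.9 FPKM in WT_IR, 15.7 and 15.4 FPKM in KO and 17.4 and 14.4 FPKM in WT. Neither passed the test in any comparison on the deposited scale. For Srm the 95% interval in WT_IR minus WT was -0.22 to 0.26 (log2), and for Amd1 it was -0.12 to 0.38. On the TPM scale both passed as higher in WT_IR, Amd1 by 0.63 (limma adjusted p = 0.00361) and Srm by 0.52 (limma adjusted p = 0.00752), a rise close to the 0.49 by which that scale moves the median gene. On that scale Srm was also lower in KO_IR than in WT_IR, by -0.56 (limma adjusted p = 0.00812), where the median gene moves by -0.35. Amd1 can share reads with Amd2, which reached 1.41 FPKM in WT_IR 2, and with 5 annotated processed pseudogenes, of which Amd-ps3 alone reached 1 FPKM in any library (1.07 in KO_IR 2).

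Sms (ENSMUSG00000071708, chrX:157443855-157492287, minus strand), which turns spermidine into spermine, had 5.85 and 6.44 FPKM in KO_IR, 2.46 and 2.76 FPKM in WT_IR, 5.76 and 6.22 FPKM in KO and 5.66 and 4.70 FPKM in WT. WT_IR was again the low group, with no overlap with any other. Sms fell by 0.77 ± 0.11 (log2) in WT_IR against WT (limma adjusted p = 0.00145), and on the TPM scale by a difference of -0.43 (limma adjusted p = 0.0312). Its mean FPKM in WT_IR was 0.504 times that of WT. Between KO_IR and KO the difference was 0.03 ± 0.11 (95% interval -0.23 to 0.29, limma adjusted p = 0.949). A processed pseudogene, Sms-ps, can share its reads and is therefore a source of uncertainty. Sms-ps had 9.27 and 8.38 FPKM in KO_IR, 5.13 and 2.86 FPKM in WT_IR, 9.72 and 10.8 FPKM in KO and 8.07 and 10.5 FPKM in WT, so it too was lowest in WT_IR.

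On the breakdown side, Aoc1 (ENSMUSG00000029811, chr6:48872896-48909188, plus strand) had the largest difference of the 10 genes. It had 10.8 and 22.5 FPKM in KO_IR, 74.6 and 59.3 FPKM in WT_IR, 6.47 and 9.88 FPKM in KO and 3.05 and 1.73 FPKM in WT. The groups followed one another without overlap, WT_IR highest, then KO_IR, KO and WT. Aoc1 rose by 4.34 ± 0.36 (log2) in WT_IR against WT (limma adjusted p = 0.000163), and its mean FPKM was 28.0 times that of WT. In KO_IR against KO the difference was 0.88 ± 0.36, with an unadjusted p under 0.05 and a limma adjusted p of 0.369, and without KO 2 it was 1.15 (adjusted p = 0.403). In KO against WT it was 1.44 ± 0.36 (limma adjusted p = 0.201), and 1.17 without KO 2 (adjusted p = 0.557). By rank among all genes Aoc1 stood at 519 and 683 in WT_IR, against 9374 and 11356 in WT. The lowest library, WT 2, held 87 Aoc1 fragments, against the 3 fragments taken as a detection floor.

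Smox (ENSMUSG00000027333, chr2:131491496-131525922, plus strand), the inducible spermine oxidase that releases hydrogen peroxide, had 3.41 and 3.23 FPKM in KO_IR, 10.5 and 12.6 FPKM in WT_IR, 2.52 and 2.48 FPKM in KO and 2.96 and 3.39 FPKM in WT. WT_IR was the high group, and KO_IR lay above KO but overlapped WT. Smox rose by 1.58 ± 0.11 (log2) in WT_IR against WT (limma adjusted p = 0.000102), and its mean FPKM was 3.63 times that of WT. In KO_IR against KO the difference was 0.30 ± 0.11, with an unadjusted p under 0.05 and a limma adjusted p of 0.317.

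Sat1 (ENSMUSG00000025283, chrX:155213132-155216449, minus strand), the acetyltransferase that starts the back-conversion of spermine and spermidine, had 121.6 and 87.6 FPKM in KO_IR, 137.9 and 149.0 FPKM in WT_IR, 80.3 and 84.9 FPKM in KO and 95.4 and 111.4 FPKM in WT. WT_IR was highest in both libraries, and the KO_IR libraries lay on either side of those of WT. The difference in WT_IR against WT was 0.47 ± 0.16 (log2), which missed the threshold narrowly (limma adjusted p = 0.0503). Its adjusted p was 0.04 with genes of at least 5 FPKM, 0.0284 with voom on fragments, 0.025 with the 2 groups alone, 0.0128 without KO_IR 1, 0.0129 without KO_IR 2 and 0.000757 on the TPM scale, where the difference was 0.99. In KO_IR against KO the difference was 0.32 ± 0.16 (limma adjusted p = 0.478).

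Paox (ENSMUSG00000025464, chr7:140115799-140137224, plus strand), the peroxisomal oxidase of acetylated polyamines, had 2.89 and 2.73 FPKM in KO_IR, 2.98 and 2.43 FPKM in WT_IR, 2.82 and 2.45 FPKM in KO and 3.13 and 2.44 FPKM in WT. All groups overlapped, and the 95% interval in WT_IR minus WT was -0.34 to 0.28 (log2). Of its 4907 exon bases 142 overlap Echs1 on the other strand, a gene of fatty acid oxidation at 30.3 and 25.9 FPKM in KO_IR, 12.4 and 12.6 FPKM in WT_IR, 34.9 and 33.6 FPKM in KO and 37.1 and 33.0 FPKM in WT.

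Without injury, none of the 10 genes passed in KO against WT in limma, beside 0.218% of all genes tested. Aoc1 and Azin1 had an unadjusted p under 0.05 there, 2 of the 10, as did Aoc1 and Smox in KO_IR against KO. With voom on the recovered fragments the count was 0 of 10 in both comparisons too. Over all genes 1854 had an unadjusted p under 0.05 in KO against WT and 34 passed, and in KO_IR against KO 1991 and 160. Odc1 differed by 0.05 ± 0.099 (log2) in KO against WT, with a 95% interval of -0.19 to 0.28. Without KO 2 that difference was 0.01, the difference of Azin1 was 0.45 (limma adjusted p = 0.472), and the count of members called in limma was 0 of 10 in both comparisons. In KO against WT the 7 genes other than Odc1, Azin1 and Aoc1 then lay between -0.36 (Sat1) and 0.33 (Amd1). In KO_IR against KO without KO 2 the difference was -0.05 for Odc1, 0.08 for Sms, 0.295 for Smox, 0.42 for Arg2 and 0.36 for Sat1, and between -0.18 (Srm) and 0.08 (Azin1) for Amd1, Srm, Paox and Azin1.

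Within injured kidneys, KO_IR against WT_IR, Odc1 was higher by 1.19 ± 0.099 (log2, limma adjusted p = 0.000497), Sms by 0.98 ± 0.11 (limma adjusted p = 0.00123) and Azin1 as given above. In the same comparison Smox was lower by a difference of -1.53 ± 0.11 (limma adjusted p = 0.000394), Aoc1 by -2.02 ± 0.36 (limma adjusted p = 0.00621) and Arg2 by -1.19 ± 0.23 (limma adjusted p = 0.00859). The Arg2 call was lost without WT_IR 2, at -0.96 (limma adjusted p = 0.0554). With a pseudocount of 5 in place of 1, which shrinks low genes, the differences of Sms and Smox were 0.55 and -0.99 here and -0.42 and 1.01 in WT_IR against WT, all still called. Sat1 differed by -0.47 ± 0.16 (limma adjusted p = 0.065), and its adjusted p was 0.0499 with genes of at least 5 FPKM, 0.0372 with voom, 0.015 without KO_IR 1 and 0.00297 on the TPM scale, where the difference was -0.83. Over all genes 2583 were higher and 2106 lower in KO_IR than in WT_IR, and 1432 and 5917 on the TPM scale.

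The response to injury itself was compared between genotypes as (KO_IR minus KO) minus (WT_IR minus WT), and 5 of the 10 genes passed, beside 16.3% of all genes tested. It was 1.15 ± 0.14 (log2) for Odc1 (limma adjusted p = 0.00495; 0.71 on the TPM scale, adjusted p = 0.0141) and 0.80 ± 0.16 for Sms (limma adjusted p = 0.0169). For Aoc1 it was -3.46 ± 0.50 (limma adjusted p = 0.00735), for Smox -1.28 ± 0.16 (limma adjusted p = 0.00506) and for Arg2 -1.27 ± 0.32 (limma adjusted p = 0.0395). By TPM 8 of the 10 passed, 1 above and 7 below 0, against 2 and 3 on the deposited scale. The calls gained there were Srm (-0.62, limma adjusted p = 0.0322), Amd1 (-0.55, 0.048), Azin1 (-0.53, 0.0317) and Sat1 (-0.60, just under 0.05), where that scale moves the median gene by -0.43. The Sms call was lost on the TPM scale (0.53, limma adjusted p = 0.0783) and without WT_IR 1 (adjusted p = 0.0622), KO 1 (0.0551) or WT 1 (0.0505). The Arg2 call was lost with all genes tested (adjusted p = 0.101) and without KO_IR 2 (0.0924), WT_IR 2 (0.116), KO 1 (0.0661), KO 2 (0.120) or WT 1 (0.111). Without KO 2 the calls of Odc1, Sms, Aoc1 and Smox remained. On the TPM scale 745 genes had a higher and 3783 a lower response, against 1502 and 1042 on the deposited scale. The comparisons with most calls, WT_IR minus WT and KO_IR minus WT_IR, share the 2 WT_IR libraries.

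**Figure D2:**
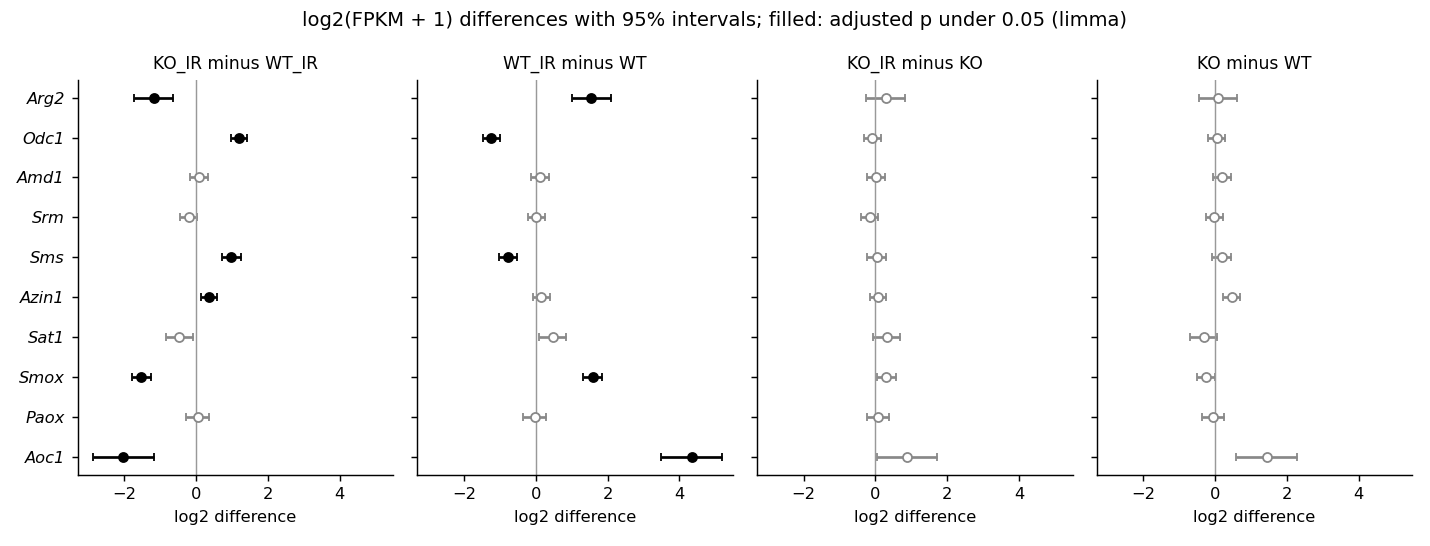
Differences of log2(FPKM + 1) with 95% intervals for the 10 genes in KO_IR minus WT_IR, WT_IR minus WT, KO_IR minus KO and KO minus WT, filled where the limma adjusted p was under 0.05. Filled points appear only in the 2 comparisons that hold WT_IR, with 6 of 10 in KO_IR minus WT_IR and 5 of 10 in WT_IR minus WT.

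Markers of many cell types in the tissue also changed in WT_IR, and their part in the results was not tested. In bulk tissue fewer cells of a type and less RNA per cell cannot be told apart. All 9 proximal tubule markers tested of 10 were lower in WT_IR than in WT (7 on the TPM scale), and the 10 summed to 3471 and 3471 FPKM in KO_IR, 993 and 695 FPKM in WT_IR, 3796 and 3887 FPKM in KO and 3834 and 3387 FPKM in WT. Of 8 androgen-dependent genes of the male mouse kidney, 7 were lower in WT_IR than in WT (6 on the TPM scale) and 6 were higher in KO_IR than in WT_IR. Their sum was 17040 and 12250 FPKM in KO_IR, 4949 and 5576 FPKM in WT_IR, 16190 and 15560 FPKM in KO and 16560 and 17490 FPKM in WT. Most of that sum was 1 gene, Kap, with 4478 and 5164 FPKM in WT_IR and 14650 and 15830 FPKM in WT. Odc1 and Sms were lowest in the same group as both lists, and so were other tubule segments. All 6 proximal straight tubule markers were lower in WT_IR than in WT (6 on the TPM scale), as were 5 of 5 of the thick ascending limb and distal tubule (4 on the TPM scale) and 5 of 6 of the collecting duct (4 on the TPM scale). Thick ascending limb and distal markers summed to 1685 and 2263 FPKM in KO_IR, 1051 and 1224 FPKM in WT_IR, 2239 and 2773 FPKM in KO and 2351 and 2052 FPKM in WT. Of the podocyte and red blood cell markers 3 of 5 and 4 of 5 were lower in WT_IR, and 0 and 1 on the TPM scale.

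Other marker lists were higher in WT_IR than in WT, as were Aoc1, Smox and Arg2, and whether they are linked was not tested. In KO_IR Smox and Arg2 overlapped WT, and so did the neutrophil sum. Neutrophil markers summed to 4.67 and 4.13 FPKM in KO_IR and 17.7 and 11.5 FPKM in WT_IR. Their sums were 4.145 and 5.72 FPKM in KO and 5.72 and 3.37 FPKM in WT. The injured tubule, macrophage, and fibroblast and pericyte sums lay above WT in KO_IR. Relative to KO, mean FPKM in KO_IR was 1.33 times for Smox and 1.26 times for Arg2, neither of them called. In KO Aoc1 and the macrophage sum lay above WT, and the cycling sum lay below it. The injured tubule sum also lay below WT in KO, but most of it was Spp1. Spp1 had 499 and 845 FPKM in KO and 926 and 913 FPKM in WT. The median difference of the 8 injured tubule markers in KO minus WT was 0.17 (log2), and 0 passed. All 8 markers of injured tubule were higher in WT_IR than in WT, with sums of 2024 and 2917 FPKM in KO_IR, 13290 and 13980 FPKM in WT_IR, 581 and 972 FPKM in KO and 1028 and 1013 FPKM in WT. All 9 macrophage markers were higher too, with sums of 169 and 171 FPKM in KO_IR, 376 and 392 FPKM in WT_IR, 57.8 and 77.1 FPKM in KO and 42.2 and 49.7 FPKM in WT. No marker of either list was at 0 in all libraries. All 6 markers of cycling cells were higher in WT_IR than in WT and lower in KO_IR than in WT_IR, with sums of 16.3 and 12.3 FPKM in KO_IR, 39.3 and 40.6 FPKM in WT_IR, 2.78 and 3.56 FPKM in KO and 11.9 and 11.2 FPKM in WT. All 6 fibroblast and pericyte markers were higher in WT_IR than in WT, with sums of 84.7 and 90.4 FPKM in KO_IR, 236 and 213 FPKM in WT_IR, 16.3 and 19.7 FPKM in KO and 10.4 and 16.2 FPKM in WT. Higher in WT_IR than in WT were also 3 of 4 neutrophil markers, all 3 tested T, NK and B cell markers and 3 of 5 endothelial markers, of which 1 was lower. Comparing KO_IR with KO, 4 of 8 injury markers, 6 of 9 macrophage, 4 of 6 cycling and 3 of 6 fibroblast and pericyte markers passed, all higher. Those calls belong to the 160 over all genes, a count that was 0 with the 2 groups alone and without KO_IR 1, WT_IR 1 or WT_IR 2 and 5 without KO 1.

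Ratios within a library do not depend on its scaling and are given as descriptions. Odc1 over Aoc1, the enzymes that make and oxidise putrescine, was 13.3 and 6.21 in KO_IR, 0.891 and 0.950 in WT_IR, 22.6 and 15.6 in KO and 48.1 and 83.1 in WT. Aoc1 exceeded Odc1 in both WT_IR libraries and in none of the other 6. Srm over Sms was 2.27 and 2.23 in KO_IR, 6.59 and 5.77 in WT_IR, 2.73 and 2.48 in KO and 3.07 and 3.07 in WT. Smox over Sms, which act in opposite directions between spermidine and spermine, was 0.583 and 0.501 in KO_IR, 4.25 and 4.57 in WT_IR, 0.437 and 0.399 in KO and 0.524 and 0.721 in WT. WT_IR thus had more Smox than Sms per length, and the other 6 libraries had less.

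The 4 genes of synthesis (Odc1, Amd1, Srm and Sms) summed to 177 and 174 FPKM in KO_IR, 98.1 and 88.6 FPKM in WT_IR, 183 and 188 FPKM in KO and 181 and 175 FPKM in WT. Odc1 made up 63.6% to 81.9% of that sum. The 4 genes of breakdown (Sat1, Smox, Paox and Aoc1) summed to 139 and 116 FPKM in KO_IR, 226 and 223 FPKM in WT_IR, 92.1 and 99.7 FPKM in KO and 104.5 and 119 FPKM in WT. Synthesis over breakdown was 1.27 and 1.50 in KO_IR, 0.434 and 0.397 in WT_IR, 1.99 and 1.89 in KO and 1.73 and 1.47 in WT. Sat1, which did not pass on the deposited scale, made up 61% to 94% of the breakdown sum. The ratio thus rests mainly on Odc1 and Sat1. Aoc1 contributed 33.0% and 26.6% of the breakdown sum in WT_IR, against 2.92% and 1.45% in WT. Sums of RNA say nothing of enzyme activity or of polyamine levels, which were not measured here.

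**Figure D3:**
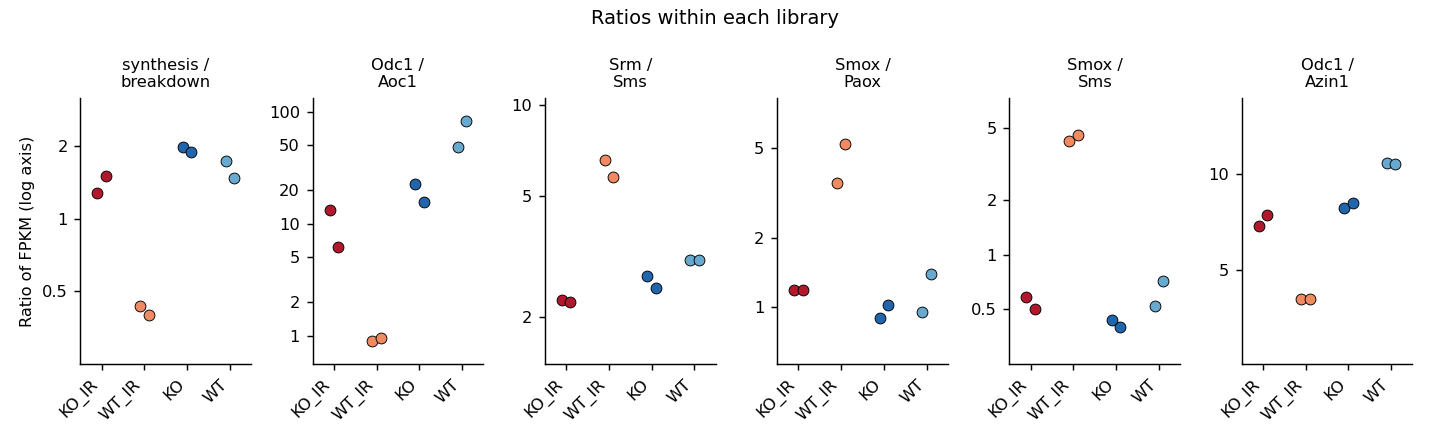
Ratios of FPKM within each library on log axes, for the synthesis sum over the breakdown sum and for 5 pairs of genes, in the groups KO_IR, WT_IR, KO and WT. The WT_IR libraries lie apart from the other 6 in each panel, at 0.434 and 0.397 for synthesis over breakdown.

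The genes around the pathway were taken in 7 lists, and their direction leans on the scaling. Of 51 such genes tested, 9 were higher and 25 lower in WT_IR than in WT, and 20 and 14 on the TPM scale. Over the 15607 genes tested 2980 were higher and 3616 lower, and 7486 and 1554 on the TPM scale. Between KO_IR and WT_IR 21 of the 51 were higher and 8 lower in KO_IR, and 11 and 18 on the TPM scale. Over all genes tested 2583 were higher and 2106 lower, and 1432 and 5917 on the TPM scale. The counts of each list below are to be read beside these counts over all genes. List medians ran from -0.52 (antizymes) to 0.05 (regulators) in WT_IR minus WT, and from -0.18 (regulators) to 0.60 (ornithine and arginine supply) in KO_IR minus WT_IR. None of the 51 passed in limma in KO_IR against KO or in KO against WT, where 7 and 9 had an unadjusted p under 0.05 and voom called 0. Over all genes tested 160 and 34 passed in limma, and 1991 and 1854 had an unadjusted p under 0.05. The difference in response between genotypes, KO_IR minus KO against WT_IR minus WT, passed above 0 for 16 of the 51 and below 0 for 3, and for 10 and 13 on the TPM scale. Over all genes tested it passed for 1502 and 1042, and for 745 and 3783 on the TPM scale.

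Ornithine and arginine supply, 10 genes tested, had 3 higher and 6 lower in WT_IR than in WT (4 and 4 on the TPM scale). The fallers included Ass1 and Asl, which make arginine in the proximal tubule. Ass1 had 856 and 683 FPKM in KO_IR, 176 and 133 FPKM in WT_IR, 904 and 723 FPKM in KO and 920 and 760 FPKM in WT. In WT_IR against WT Ass1 fell by 2.45 ± 0.20 (log2, limma adjusted p = 0.000165) and Asl by 1.52 ± 0.16 (limma adjusted p = 0.000437). Gatm, which uses arginine for creatine, fell by 1.86 ± 0.095 (limma adjusted p = 5.08e-05), and the mitochondrial ornithine carrier Slc25a15 fell by 1.04 ± 0.11 (limma adjusted p = 0.00041). In KO_IR against WT_IR 6 were higher and 3 lower (3 and 4 on the TPM scale), led by Gatm (1.70 ± 0.095) and Ass1 (2.32 ± 0.20), followed by Asl (1.30 ± 0.16) and Aldh18a1 (-1.08 ± 0.18), the enzyme that makes pyrroline-carboxylate on the way to ornithine and proline. Arg2 was thus higher in the group in which Ass1 and Asl were lower.

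The antizymes, which bind ornithine decarboxylase and send it to the proteasome, were lower in WT_IR on the deposited scale alone. Oaz1 had 159.4 and 136.8 FPKM in KO_IR, 107.3 and 114.2 FPKM in WT_IR, 152.4 and 153.8 FPKM in KO and 183.4 and 170.6 FPKM in WT. In WT_IR against WT Oaz1 fell by 0.67 ± 0.10 (log2, limma adjusted p = 0.00188) and Oaz2 by 0.52 ± 0.11 (limma adjusted p = 0.00982), while the other antizyme inhibitor, Azin2, differed by 0.04 ± 0.14. On the TPM scale Oaz1 differed by -0.16 (limma adjusted p = 0.0998) and Oaz2 by -0.02 (limma adjusted p = 0.907). Relative to WT_IR, KO_IR had more of both: Oaz2 was higher by 0.50 ± 0.11 (limma adjusted p = 0.016) and Oaz1 by 0.41 ± 0.10 (limma adjusted p = 0.0219), calls that TPM also lost (adjusted p = 0.249 and 0.567).

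Of 9 genes for the supply of S-adenosylmethionine and the salvage of methylthioadenosine, the by-product of Srm and Sms, 4 were lower and 0 higher in WT_IR than in WT, and on the TPM scale 3 were lower and 5 higher. The lower ones on the deposited scale were Got1 (-0.90 ± 0.092), Kyat1 (-1.08 ± 0.11), Adi1 (-0.92 ± 0.11) and Mat2b (-0.26 ± 0.074), which passed in the other direction on the TPM scale (0.23, limma adjusted p = 0.0348). In KO_IR against WT_IR Adi1, Got1 and Kyat1 were higher, by 0.89 ± 0.11, 0.62 ± 0.092 and 0.43 ± 0.11, and on the TPM scale the Kyat1 call was lost (0.08, limma adjusted p = 0.498). On the deposited scale 0 of the 9 were lower in KO_IR, and on the TPM scale 2 were higher and 3 lower. For hypusine formation, in which spermidine modifies eIF5A, Eif5a2 was higher by 0.69 ± 0.12 and Eif5a and Dohh lower, by -0.38 ± 0.10 and -0.44 ± 0.13, in WT_IR against WT. By TPM 2 of the 4 hypusine genes were higher and 0 lower, with Eif5a at 0.13 (limma adjusted p = 0.21) and Dohh at 0.02 (limma adjusted p = 0.916). Dhps, the deoxyhypusine synthase, differed by -0.00 ± 0.11.

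Transport genes, 7 tested, had 1 higher and 3 lower in WT_IR than in WT (2 and 2 on the TPM scale). The organic cation transporter Slc22a2 and the efflux carrier Slc47a1, both of the proximal tubule, fell by 1.42 ± 0.082 and 1.36 ± 0.091 (log2). Slc18b1, a vesicular polyamine transporter, fell by 0.36 ± 0.077, and its difference was 0.10 on the TPM scale (limma adjusted p = 0.389). Slc22a2 had 114.2 and 114.4 FPKM in KO_IR, 55.9 and 51.1 FPKM in WT_IR, 140.6 and 147.0 FPKM in KO and 145.5 and 144.7 FPKM in WT. The lysosomal polyamine exporter Atp13a2 was higher by 0.61 ± 0.12. Comparing KO_IR with WT_IR, 4 of the 7 were higher and Atp13a2 alone was lower, by -0.52 ± 0.12. On the TPM scale 2 were higher and 2 lower.

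Other acetylating and amine-oxidising genes, 9 tested, had 2 higher and 5 lower in WT_IR than in WT (2 and 3 on the TPM scale). Aldh7a1 and Aldh9a1, dehydrogenases that clear aminoaldehydes, fell by 1.46 ± 0.14 and 1.50 ± 0.16 (log2), and Aldh2 fell by 1.04 ± 0.16. The monoamine oxidase Maoa was higher by 0.93 ± 0.10, at 3.36 and 3.97 FPKM in KO_IR, 5.66 and 5.92 FPKM in WT_IR, 3.31 and 3.71 FPKM in KO and 2.61 and 2.53 FPKM in WT. In KO_IR against WT_IR 4 of the 9 were higher and 1, Maoa, was lower (-0.54 ± 0.10). On the TPM scale 3 were higher and 2 lower.

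Of 9 transcription regulators linked to Odc1 or Sat1 in the literature, 2 were higher and 3 lower in WT_IR than in WT (5 and 2 on the TPM scale). Myc, whose protein activates Odc1 through E-boxes, had 10.8 and 4.43 FPKM in KO_IR, 21.8 and 24.4 FPKM in WT_IR, 2.80 and 3.01 FPKM in KO and 2.52 and 3.72 FPKM in WT. It rose by 2.56 ± 0.33 (log2) in WT_IR against WT (limma adjusted p = 0.000923) while Odc1 fell. Mycl rose by 1.35 ± 0.24, and Hnf4a, a regulator of proximal tubule identity, fell by 1.28 ± 0.10 and Ppargc1a by 0.98 ± 0.15. In KO_IR against WT_IR Hnf4a was higher by 0.95 ± 0.10, Myc was lower by -1.58 ± 0.33, and Ppargc1a was higher by 0.66 ± 0.15 (0.37 on the TPM scale, limma adjusted p = 0.133). Of the 9 regulators 2 were higher and 2 lower in that comparison, and 1 and 6 on the TPM scale.

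**Figure D4:**
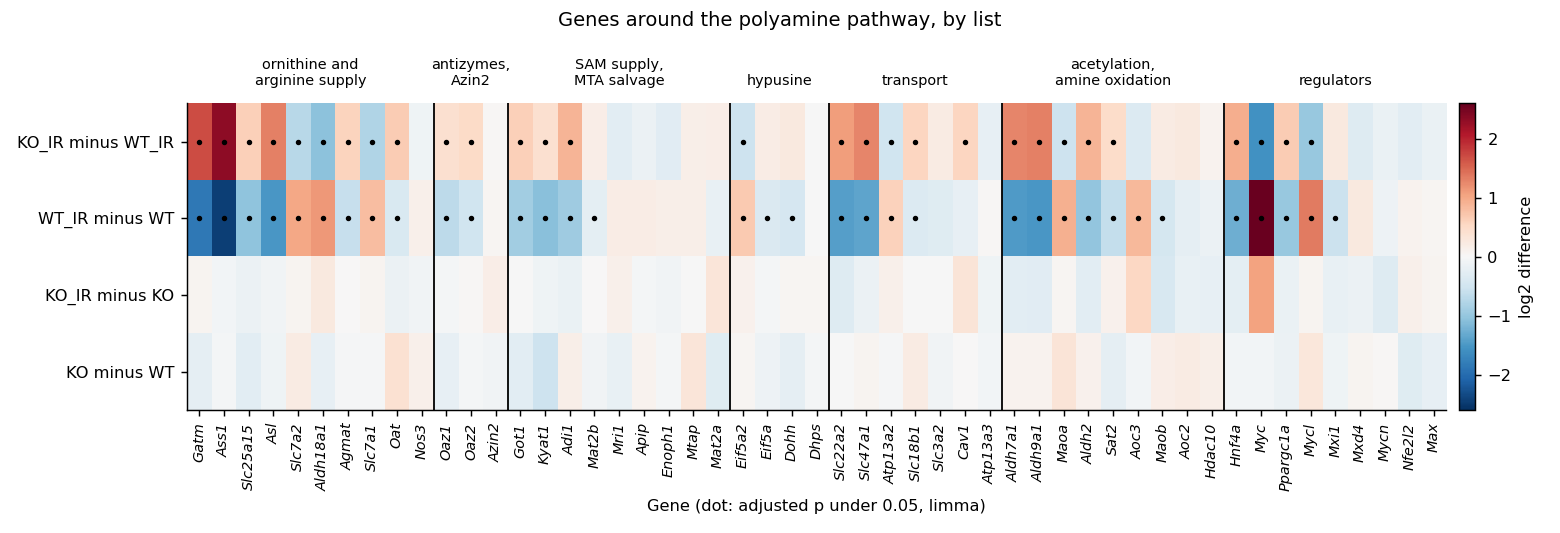
Differences of log2(FPKM + 1) for the genes around the polyamine pathway, grouped by list, in KO_IR minus WT_IR, WT_IR minus WT, KO_IR minus KO and KO minus WT (red higher, blue lower; a dot marks a limma adjusted p under 0.05). Of 51 genes, 21 dotted ones are higher and 8 lower in KO_IR minus WT_IR, 9 are higher and 25 lower in WT_IR minus WT, and the other 2 comparisons carry no dot.

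Likeness of pattern was measured as the root mean square difference of mean-centred log2(FPKM + 1) over the 8 libraries, across 12701 protein-coding genes. For Odc1 the nearest genes were Fn3k (0.0593), Mcur1 (0.0688) and Gpr137b (0.0737). Mcur1 had 30.6 and 28.6 FPKM in KO_IR, 14.4 and 12.2 FPKM in WT_IR, 34.6 and 35.1 FPKM in KO and 31.1 and 29.3 FPKM in WT. The transporter Slc47a1 named above was the next nearest to Odc1, at 0.0758. For Sat1 they were Btg3 (0.0760), Eif4a1 (0.0773) and Tuba1c (0.0835), and for Arg2 Uchl1 (0.134), Pxdc1 (0.141) and Mmp3 (0.145). Aoc1 had no neighbour as near, with Aldh1a2 at 0.440, Serpina10 at 0.443 and Gbp2 at 0.472. Aldh1a2 had 7.12 and 8.12 FPKM in KO_IR, 31.9 and 33.1 FPKM in WT_IR, 1.88 and 1.82 FPKM in KO and 0.899 and 0.829 FPKM in WT, the same order of groups as Aoc1.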

How the data were processed

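Kidney RNA was selected for poly-A and sequenced in 8 libraries (KO_IR, WT_IR, KO and WT, 2 each, 3 mice per pool), per the labels. The authors deposited FPKM per gene, per the file headers, after alignment with HISAT2 2.0.5 to mm10 (GRCm38.p6), per the submitters' processing notes. Which tool counted fragments is not stated. In every library 100% of genes had an FPKM that, multiplied by length, was a whole number of steps (tolerance 1e-06), and these gave the fragments. A count of 3 fragments on 1 kb equals 0.148 to 0.206 FPKM (counting error only). The median-of-ratios factors of the deposited values were equal, 1.01 in every library.

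Log2(FPKM + 1) of genes averaging 0.5 FPKM or more from all libraries entered 1 model, fitted with limma 3.58.1 under R 4.3.3, with a mean for each group and a trend of variance on level (4 residual degrees of freedom, plus a prior of 3.04). Benjamini-Hochberg adjustment was applied to the genes of each of the 5 comparisons (threshold 0.05), and errors are standard errors. The fit was tested on simulated data. The members and lists were chosen with earlier results of these data known. The text names all 10 members, up to 4 genes of each list by p in a comparison, the 3 genes most like Odc1, Aoc1, Arg2 and Sat1 (Slc47a1, next for Odc1, was added after its value was seen), and copies that reached 1 FPKM. Alternatives were the pseudocount (0.1 and 5), no filter, a filter at 5 FPKM, TPM, median-of-ratios factors, no trend, a replicate block, voom on fragments, the 2 groups alone, and leaving out each library. Some genes of the pathway lists are not reported here.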

Additional observations from a re-analysis of the deposited data

Results flagged for a closer look

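For 5 genes the response to injury differed between the genotypes by the interaction test, (KO_IR minus KO) minus (WT_IR minus WT), in limma with Benjamini-Hochberg adjustment. The difference of responses was 1.15 (log2) for Odc1, where the change was -0.09 in KO_IR against KO and -1.23 in WT_IR against WT. It was 0.80 for Sms, with 0.03 in KO_IR against KO and -0.77 in WT_IR against WT. Aoc1 had -3.46, with 0.88 in KO_IR against KO and 4.34 in WT_IR against WT. Smox had -1.28, with 0.30 in KO_IR against KO and 1.58 in WT_IR against WT. Arg2 had -1.27, with 0.29 in KO_IR against KO and 1.55 in WT_IR against WT. The calls of Odc1, Aoc1 and Smox were kept in every alternative run. The Sms call was lost on the TPM scale and without WT_IR 1, KO 1 or WT 1, and the Arg2 call was lost with no filter and without KO_IR 2, WT_IR 2, KO 1, KO 2 or WT 1.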

How the results depend on the processing

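With 2 pools a group, only changes well above the spread between pools could pass, and counts of called genes moved with the libraries used. Over 10 genes, 5 comparisons and the alternatives, 819 of 880 values kept their direction and their side of the threshold, 17 lost a call, 18 gained one and 26 changed sign, 0 of which belonged to a call. Some of the 880 could hardly change. The 50 with median-of-ratios factors repeat the main fit, since those factors were equal. Leaving out a library of a group outside a comparison cannot move its difference, only its error.

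On the TPM scale the calls among the 10 genes were 9 in WT_IR minus WT and 8 in the interaction. All genes called on that scale were 9040 in WT_IR minus WT, 255 in KO_IR minus KO, 7349 in KO_IR minus WT_IR and 4528 in the interaction. Signs that changed there were Paox 0.42 in WT_IR minus WT, Srm 0.0595 and Paox 0.0108 in KO minus WT, Amd1 -0.26 and Paox -0.27 in KO_IR minus WT_IR, and Paox -0.28 in the interaction, all uncalled. With no filter all genes called were 35 in KO_IR minus KO, 19 in KO minus WT and 1670 in the interaction. With a minimum of 5 FPKM, which tests fewer genes, they were 4234 in WT_IR minus WT and 16 in KO minus WT. A pseudocount of 5 gave 7 in KO minus WT, voom on fragments gave 314 in KO_IR minus KO and 61 in KO minus WT, and the 2 groups alone gave 0 in each of these. Where no other reason is given, the cause was not tested.

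With 1 library left out, the calls among the 10 genes in the interaction were 3 to 5, the lowest without KO 1 or WT 1. All genes called were 0 to 109 in KO_IR minus KO (0 without KO_IR 1, WT_IR 1 or WT_IR 2), 0 to 17 in KO minus WT (0 without KO 1 or WT 1), 2612 to 4557 in KO_IR minus WT_IR and 1289 to 2315 in the interaction (both lowest without WT_IR 2). The count was also low without KO_IR 1 (2989 in KO_IR minus WT_IR, 1543 in the interaction) and WT_IR 1 (2845 and 1368), and in the interaction without KO 2 (1293) and WT 1 (1354). In KO_IR minus KO it was 5 without KO 1, 97 without KO_IR 2, 82 without WT 1 and 79 without WT 2, and in KO minus WT 1 to 5 without KO 2, WT 2 or either WT_IR library and 17 without either KO_IR library. Uncalled members whose sign changed ranged as follows. In WT_IR minus WT Srm had -0.11 to 0.14 and Paox -0.16 to 0.10. In KO_IR minus KO Amd1 had -0.12 to 0.15, Sms -0.0288 to 0.0902, Paox -0.00602 to 0.14 and Azin1 -0.00222 to 0.14. In KO minus WT Srm had -0.15 to 0.10, Paox -0.19 to 0.0790 and Arg2 -0.15 to 0.31. In KO_IR minus WT_IR Paox had -0.0655 to 0.15. In the interaction Sat1 had -0.39 to 0.0807, Amd1 -0.25 to 0.0207, Paox -0.0360 to 0.23 and Azin1 -0.20 to 0.0157.

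The labels do not say whether equal replicate numbers share animals or a day. Deviations of same-numbered libraries correlated at 0.16 between KO_IR and KO and at 0.11 between WT_IR and WT. For the other pairs of groups they correlated at -0.12 to 0.01. Such correlations cannot tell whether animals or a day were shared, which was not tested. With the replicate block 9 genes were called in KO minus WT, and all 50 member results kept their direction and side of the threshold.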
